A study of Mus musculus with 36 samples.

Results

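The genes described here are 3 angiopoietin-like genes (Angptl4, Angptl6 and Angptl8) and 4 genes of intravascular lipolysis: lipoprotein lipase (Lpl), hepatic lipase (Lipc), the capillary anchor of lipoprotein lipase (Gpihbp1) and lipase maturation factor 1 (Lmf1). They were taken by gene name from the array files, where Angptl8 carries the older name Gm6484. This gave 7 genes of 37325 and 13 probes of 56605. All 7 genes and all 13 probes passed the filter on dim probes described with the processing, and the probe that represents each gene was well above background on all 36 arrays.

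RNA was measured in livers of male C57Bl/6J mice, with 6 arrays in each of 6 groups. AAKO mice lack adipose triglyceride lipase (ATGL, the product of Pnpla2, which releases fatty acids from stored triglyceride) in white adipose tissue, and CTRL mice are their controls; the driver of the deletion and the age of the mice are not given in the sources used here. Fed mice ate freely from a standard diet, fasted mice went 24 h without food, and the third condition was fed mice given a single gavage of CL316243 at 3 mg/kg in 0.5% carboxymethyl cellulose at Zeitgeber time 10 (counted from lights on). CL316243 is an agonist of the beta 3 adrenergic receptor of adipocytes. All mice were killed at Zeitgeber time 16. The labels place the untreated fed groups in experiment 2 and all others in experiment 1, so feeding state and experiment cannot be told apart in any comparison with the fed groups. A gavage is given for the CL316243 groups only, so agonist and gavage cannot be told apart either. Nothing in the labels says that the samples of a group are separate animals, so p-values measure only the spread between these samples, which may in part be technical.

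Lipoprotein lipase hydrolyses the triglyceride of chylomicrons and very-low-density lipoproteins at the capillary wall, so that fatty acids enter the tissue beneath. Lmf1 folds the lipase in the endoplasmic reticulum, Gpihbp1 carries it across the endothelial cell and holds it on the capillary surface, and the angiopoietin-like proteins 4 and 8 limit its activity. Angptl4 is a classical target of the fatty acid receptor PPARα and of fasting in liver, whereas Angptl8 is a hepatic and adipose product known to rise with feeding and insulin. Adult liver makes little lipoprotein lipase of its own and instead makes hepatic lipase, which acts on remnants and high-density lipoprotein.

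The part of each transcript that was read is a single array probe, and the probes are shown because the results for Lpl and Lmf1 depend on which one is used. Coordinates are those the array files give on mm9. The probe of Angptl4 lies at chr17:33911880-33911939 on the minus strand, that of Angptl6 at chr9:20678326-20678385 on the minus strand, and that of Angptl8 at chr9:21641729-21641788 on the plus strand. The probe of Lipc covers chr9:70660699-70664375 on the minus strand, a span longer than the probe, so it bridges a gap in the genome. The probe of Gpihbp1 lies at chr15:75428484-75428543 on the plus strand. For some probes the last 30 bases are given. TGA at the end of the Angptl6 probe and AATAAA, the letters of a polyadenylation signal, in those of Angptl8 and Lmf1 are in capitals. Among the Lpl probes printed further below, A_52_P257812 also holds AATAAA and A_66_P123790 also ends in TGA, there without capitals. An mm9 annotation was not used here, so exon and intron are not stated.
Angptl4, last 30 bases: aggtgctaactgtggttcccaggcacagct
Angptl6: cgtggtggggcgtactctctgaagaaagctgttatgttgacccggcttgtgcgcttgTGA
Angptl8, last 30 bases: caccccacAATAAAagagaacagaggcaat
Lipc: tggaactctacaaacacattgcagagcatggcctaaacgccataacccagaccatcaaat
Gpihbp1: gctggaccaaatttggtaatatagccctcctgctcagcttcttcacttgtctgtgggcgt
Lmf1 probe A_55_P1991075, last 30 bases: acacacacgctgaAATAAAgaccagagacc
Lmf1 probe A_55_P2177988: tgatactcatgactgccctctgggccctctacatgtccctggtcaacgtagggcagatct

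Between 33130 and 37200 of the 56605 probes were well above background on an array. The 6 hepatocyte markers found on the array by name (Alb, Apoa1, Apob, Cps1, Fgb and Serpina1a, of 7 listed) were above background on all arrays. Pnpla2 in liver, which the deletion in fat does not target and which therefore does not test the labels, ranged from 3.43 ± 0.44 in AAKO fed to 6.76 ± 0.12 in AAKO fasted (mean ± SD of log2 signal scaled to the 75th percentile of each array, n = 6). Between fasted AAKO and fasted CTRL livers, 3 of 4 neutrophil markers were higher, 1 of 5 adipocyte markers was higher and 1 lower, and 1 of 3 red blood cell markers was lower. Of the 6 hepatocyte markers 1 was higher and 3 were lower there, and the same counts were found on fasting in AAKO mice. Of all genes, 21.3% were higher and 28% lower in fasted AAKO than in fasted CTRL livers. On fasting in AAKO mice these shares were 27.8% and 35.7%. One library stood apart. In AAKO CL316243 replicate 6 the skeletal muscle actin Acta1 reached 4.88, against -7.16 to -4.42 on the other 35 arrays, and the muscle creatine kinase Ckm reached 1.45 against at most -6.62; the fast myosin Myh4 was at -3.34, inside the range of the others (-4.01 to -2.83). Muscle is rich in lipoprotein lipase, and the same array had the highest Lpl value of the study. Whether muscle in the sample contributed to that value was not tested. Results of the AAKO CL316243 group are given with and without this array where they change.

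All values below are log2 signals scaled in that way, so a value of 0 is as bright as that percentile and a difference of 1 is a doubling. A gene was called when its adjusted p in limma, over 24251 genes, was under 0.05. Levels of different genes come from different probes and are not compared. The median difference of all genes lay between -0.09 and 0.03 in every comparison.

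In fed mice none of the 7 genes was called between genotypes, in a comparison that called 0.0783% of all genes (0.0412% higher and 0.0371% lower in AAKO); 0 of 7 had groups that did not overlap, against 0.656% of all genes. Among fasted mice 3 of 7 were called, Angptl4 and Gpihbp1 higher and Lmf1 lower in AAKO, where 49.3% of all genes were called (21.3% higher and 28% lower), and 1 of 7 had groups that did not overlap, against 21.3%. After CL316243 1 of 7 was called, Angptl4, lower in AAKO, where 24.7% were called (13.4% higher and 11.3% lower), and 1 of 7 did not overlap, against 11.5%. These are counts among 7 genes, and they were not tested against the shares of all genes.

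Fasting against feeding called 6 of 7 genes in CTRL mice, 1 higher and 5 lower, where 43.3% of all genes were called (20.9% higher and 22.4% lower), and in 5 of 7 the groups did not overlap, against 22.6%. In AAKO mice it called 6 of 7, 2 higher and 4 lower, where 63.5% were called (27.8% higher and 35.7% lower), and 5 of 7 did not overlap, against 42.6%. CL316243 against feeding called 4 of 7 in CTRL mice, 1 higher and 3 lower, where 23.3% were called (10.4% higher and 12.8% lower), and 3 of 7 did not overlap, against 12.3%. In AAKO mice it called 1 of 7, Angptl6, lower, where 31.4% were called (15.7% in each direction), and 2 of 7 did not overlap, against 15.1%. Fasting against CL316243, both within experiment 1, called 5 of 7 in CTRL mice, 2 higher and 3 lower, where 36.8% were called (19.2% higher and 17.6% lower), and 2 of 7 did not overlap, against 17.8%. In AAKO mice it called 5 of 7, 2 higher and 3 lower, where 59.9% were called (26.2% higher and 33.8% lower), and 4 of 7 did not overlap, against 37.4%. Comparisons within a genotype share groups with each other, and each is given by its own values.

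**Figure D1:**
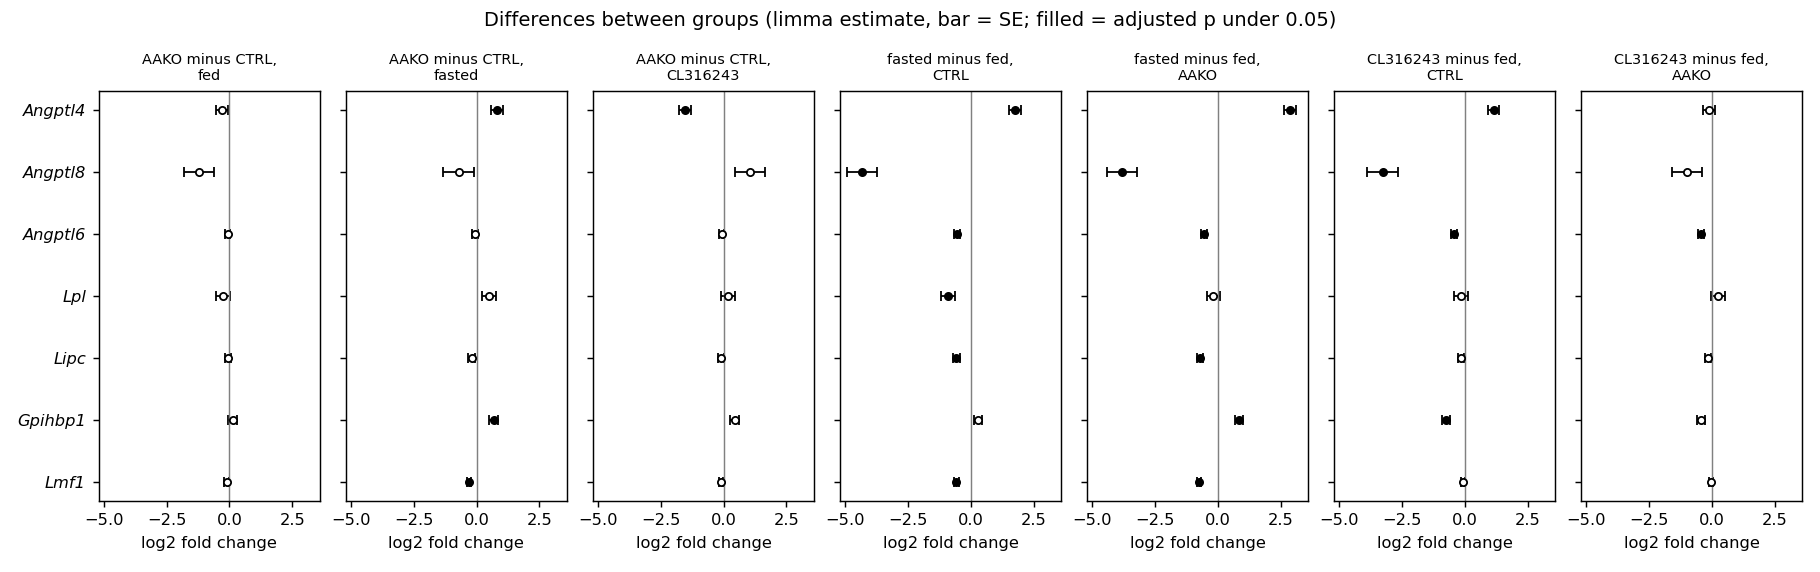
Log2 fold change (x axis) of the 7 genes (y axis) in 7 comparisons, with bars of 1 SE; filled points have an adjusted p under 0.05 in limma. Angptl4 lies on opposite sides of 0 in the genotype comparisons of fasted (0.82) and CL316243 mice (-1.55), and Angptl8 has the lowest values after fasting (-4.32 in CTRL and -3.82 in AAKO).

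Angptl4, the secreted inhibitor that unfolds lipoprotein lipase, rose on fasting in both genotypes and more in AAKO. After CL316243 it rose in CTRL mice, and the response of AAKO mice differed from theirs. In CTRL fed livers its lowest, median and highest values were 4.82, 5.23 and 5.60, and in AAKO fed livers they were 3.67, 4.93 and 5.79. The AAKO fed arrays spread the most, and the CTRL fed values lay inside their range. CTRL fasted livers held 6.68, 6.95 and 7.36, and AAKO fasted livers 7.68, 7.79 and 7.90. Every AAKO fasted array was above every CTRL fasted array, and both groups were above all fed arrays. After CL316243 the CTRL values were 5.81, 6.42 and 6.64 and the AAKO values 4.45, 4.91 and 5.07. Here each AAKO array was below each CTRL array, the reverse of the order in fasted mice.

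Fasting raised Angptl4 by 1.76 (SE 0.23, adjusted p = 2.5e-07, 3.39-fold) in CTRL and by 2.88 (SE 0.23, adjusted p = 2.7e-12, 7.38-fold) in AAKO mice. CL316243 raised it by 1.14 (SE 0.23, adjusted p = 0.000532, 2.21-fold) in CTRL, while in AAKO mice the difference was -0.10 (SE 0.24, adjusted p = 0.785). The CTRL value for CL316243 was 1.28 (adjusted p = 0.00876) within wash batch 1 and 1.005 (adjusted p = 0.141) within wash batch 2. AAKO livers held more Angptl4 than CTRL after fasting (0.82, SE 0.23, adjusted p = 0.0041, 1.76-fold) and less after the agonist (log2 fold change -1.55, SE 0.24, adjusted p = 9.21e-06, 2.92-fold). In fed mice the genotype difference was -0.30 (SE 0.23, adjusted p = 0.841).

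The genotype differences of Angptl4 themselves differed between conditions, and Angptl4 was the 1 gene of the 7 for which this was called. The genotype difference in fasted mice exceeded that in fed mice by 1.12 (SE 0.33, adjusted p = 0.00854), where 33.9% of all genes were called. After CL316243 it was below that in fed mice (log2 difference -1.25, SE 0.33, adjusted p = 0.0119), where 10.9% were called. Fasted against CL316243, within 1 experiment, it differed by 2.37 (SE 0.33, adjusted p = 2.23e-06), where 32.3% were called. Within wash batch 1 these 3 differences were 0.99, -1.70 and 2.68 (adjusted p = 0.0767, 0.0297 and 0.000207), and within wash batch 2 they were 1.25, -0.70 and 1.95 (adjusted p = 0.147, 0.629 and 0.0427). The genotype difference was 0.92 and 0.72 in the batches after fasting (adjusted p = 0.0135 and 0.174) and -1.77 and -1.23 after CL316243 (adjusted p = 0.00048 and 0.11).

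**Figure D2:**
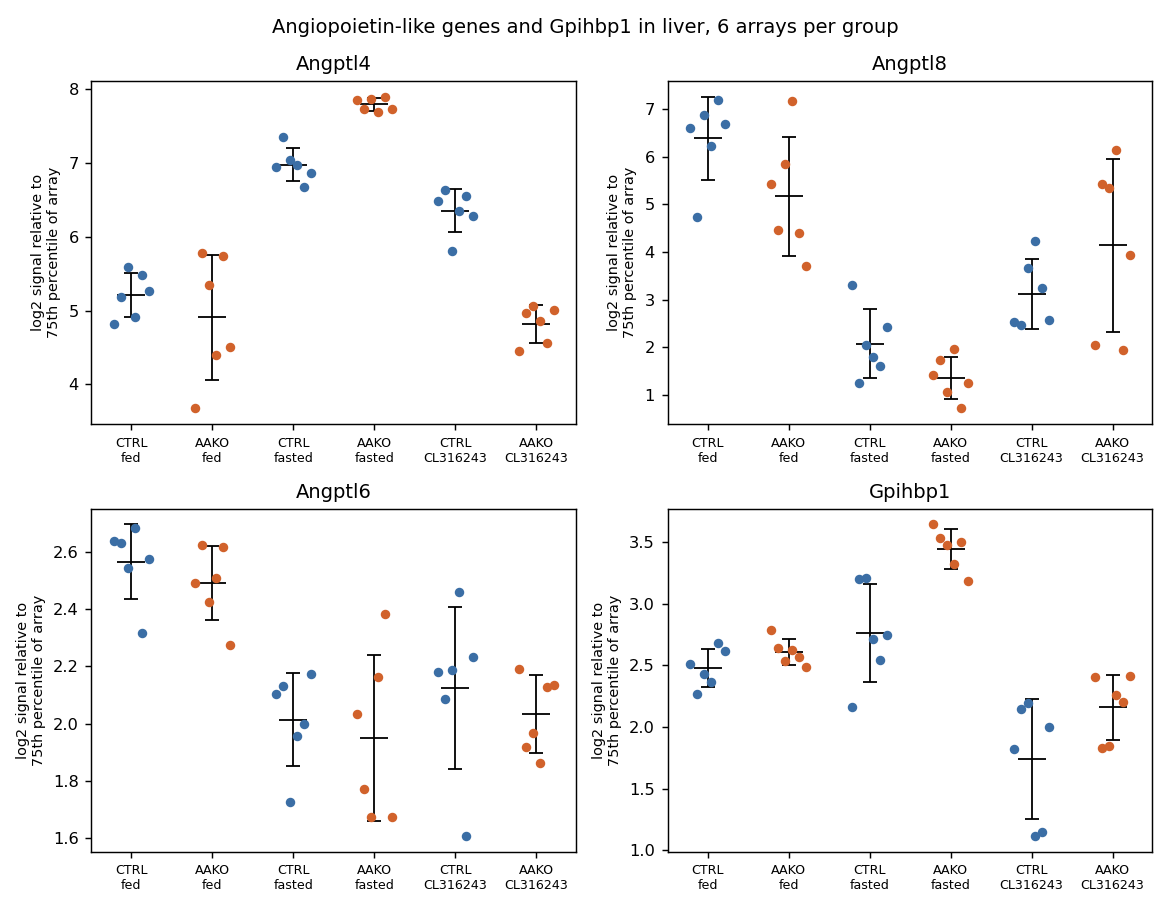
Scaled log2 signal (y axis; 0 is the 75th percentile of an array) for Angptl4, Angptl8, Angptl6 and Gpihbp1 in 6 groups (x axis). Each point is 1 array, the line is the mean and the bar 1 SD (n = 6); CTRL is blue and AAKO orange. The 6 AAKO fasted arrays of Angptl4 lie between 7.68 and 7.90 and its 6 AAKO CL316243 arrays between 4.45 and 5.07.

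Angptl4 and most of the listed targets of PPARα differed in opposite directions between fasted AAKO and fasted CTRL livers. Of 12 such genes, 12 rose on fasting and 10 after CL316243 in CTRL mice, as Angptl4 did, beside 20.9% and 10.4% of all genes. In AAKO mice 10 of the 12 were lower than in CTRL after fasting, beside 28% of all genes. Among them were Fgf21, a fasting hormone (-5.48, adjusted p = 3.99e-09), and Vnn1, a pantetheinase (-4.72, adjusted p = 8.91e-16). Angptl4 was higher there, by 0.82, and the 2 listed genes not called were Cpt1a, which admits fatty acids to mitochondria (-0.17, adjusted p = 0.237), and Pdk4, a kinase that shuts off pyruvate oxidation (0.57, adjusted p = 0.352). After CL316243, 11 of the 12 were lower in AAKO, as Angptl4 was, beside 11.3% of all genes. Fasting against feeding in AAKO mice called 5 of the 12 higher, as Angptl4 was, and 5 lower, beside 27.8% and 35.7% of all genes. No test of Angptl4 against the list was made, and the list was chosen with results of these data known.

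**Figure D3:**
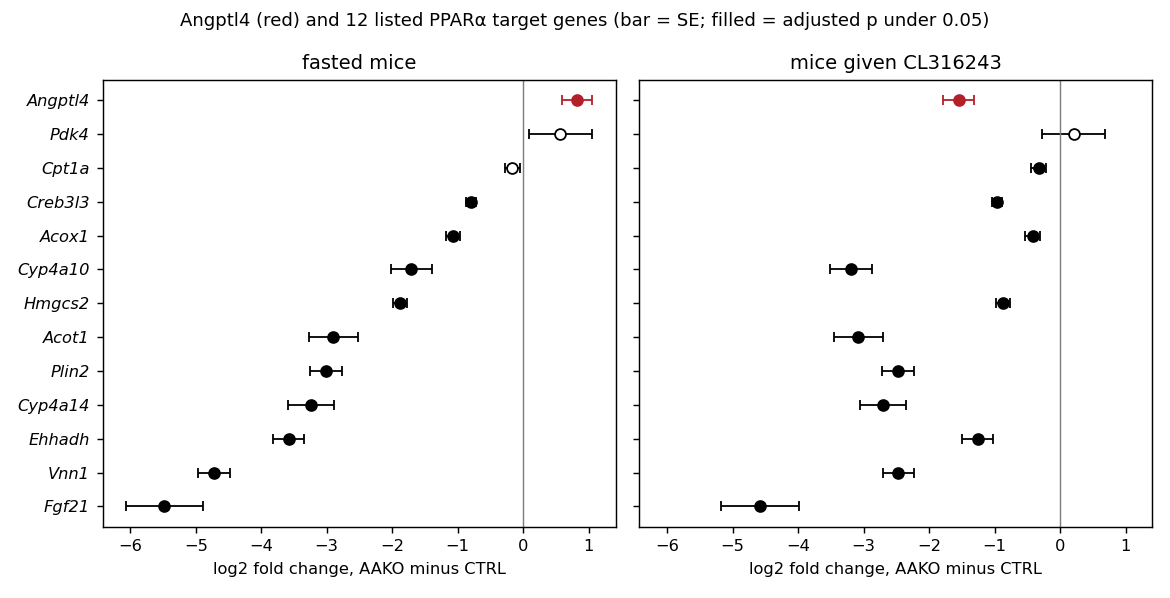
Log2 fold change of AAKO minus CTRL (x axis) for Angptl4 (red) and 12 listed PPARα target genes (black) in fasted mice (left) and in mice given CL316243 (right), with bars of 1 SE and filled points at an adjusted p under 0.05 in limma. Angptl4 is at 0.82 in fasted mice, where 10 of the 12 targets are called lower, and at -1.55 after CL316243, where 11 of 12 are.

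Angptl8, a partner of the other angiopoietin-like proteins that responds to food intake, had the widest range of group means of the 7 genes (5.03). CTRL fed livers held a lowest, median and highest value of 4.73, 6.65 and 7.19, and AAKO fed livers 3.70, 4.95 and 7.18. Fasted CTRL livers held 1.25, 1.92 and 3.31 and fasted AAKO livers 0.72, 1.33 and 1.96. No fasted array reached the lowest fed array of its genotype, whereas the genotypes overlapped in each condition. CTRL livers after CL316243 held 2.48, 2.90 and 4.23, all below the CTRL fed arrays. In AAKO livers after CL316243 replicates 1 to 6 read 2.04, 5.42, 5.34, 6.15, 1.94 and 3.93, so that 3 arrays lay inside the range of the CTRL fed group and 2 below every array of the CTRL CL316243 group.

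Fasting lowered Angptl8 by a log2 difference of -4.32 in CTRL (SE 0.60, adjusted p = 5.43e-07, 19.95-fold) and -3.82 in AAKO mice (SE 0.60, adjusted p = 1.55e-06, 14.1-fold). CL316243 lowered it in CTRL mice (-3.27, SE 0.60, adjusted p = 0.00015, 9.65-fold); in AAKO mice the difference was -0.99 (SE 0.60, adjusted p = 0.226). The genotypes' responses to the agonist differed by 2.28 (SE 0.85), which did not pass (adjusted p = 0.0831). Part of this value is the genotype difference in fed mice, -1.22 (SE 0.60, adjusted p = 0.729). Wash batch 1 holds AAKO CL316243 replicates 1, 2, 5 and 6, and wash batch 2 holds only replicates 3 and 4 of that group. The difference of responses was 0.15 (adjusted p = 0.972) within wash batch 1 and 5.12 (adjusted p = 0.00809) within wash batch 2. Over all batches it passed without AAKO CL316243 replicate 1 (2.67, adjusted p = 0.0312), AAKO CL316243 replicate 5 (2.69, adjusted p = 0.0314), AAKO fed replicate 4 (2.75, adjusted p = 0.0278) or CTRL fed replicate 2 (2.58, adjusted p = 0.0472). The AAKO response to CL316243 was -2.47 (adjusted p = 0.0408) within wash batch 1 and 1.21 (adjusted p = 0.246) within wash batch 2, and the CTRL response was -2.63 (adjusted p = 0.0694) in wash batch 1 and -3.91 (adjusted p = 0.00189) in wash batch 2. Within wash batch 2, AAKO livers after the agonist exceeded CTRL by 2.83 (adjusted p = 0.0181), against 1.06 (SE 0.60, adjusted p = 0.209) over all arrays. The genotype difference in fed mice was -0.14 (adjusted p = 0.9997) in wash batch 1 and -2.30 (adjusted p = 0.2945) in wash batch 2. AAKO livers held less Angptl8 after fasting than after CL316243 (-2.82, SE 0.60, adjusted p = 0.000151), with a value of -1.99 (adjusted p = 0.0516) in wash batch 1 and -4.38 (adjusted p = 8.95e-05) in wash batch 2.

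The listed genes of insulin action and fat synthesis fell with Angptl8 on fasting, 11 of 13 in CTRL and 11 of 13 in AAKO mice, beside 22.4% and 35.7% of all genes lower. Srebf1, a transcription factor of lipid synthesis, changed by -3.52 (adjusted p = 5.01e-15) in CTRL and -2.68 (adjusted p = 1.48e-13) in AAKO livers. After CL316243, 5 of 13 fell and 4 rose in CTRL mice, beside 12.8% of all genes lower and 10.4% higher, and 8 fell in AAKO mice, beside 15.7% lower.

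Angptl6, a circulating angiopoietin-related growth factor, was lower after fasting and after CL316243 in both genotypes, by less than 1 log2 unit. Its lowest, median and highest values were 2.32, 2.60 and 2.68 in CTRL fed, 2.28, 2.50 and 2.62 in AAKO fed, 1.73, 2.05 and 2.17 in CTRL fasted and 1.67, 1.90 and 2.38 in AAKO fasted livers. After the agonist CTRL livers held 1.61, 2.18 and 2.46 and AAKO livers 1.86, 2.05 and 2.19. The CTRL fasted and the AAKO CL316243 arrays lay below all fed arrays of their genotype, and the other 2 groups overlapped with theirs. The differences from feeding were -0.55 for fasting in CTRL (SE 0.12, adjusted p = 0.000223), -0.54 for fasting in AAKO (SE 0.12, adjusted p = 0.000141), -0.44 for CL316243 in CTRL (SE 0.12, adjusted p = 0.00559) and -0.45 for CL316243 in AAKO mice (SE 0.12, adjusted p = 0.00353). The genotypes differed by -0.08 to -0.06 in the 3 conditions, with adjusted p between 0.67 and 0.934, and fasting and CL316243 differed by -0.11 in CTRL and -0.10 in AAKO mice (SE 0.12 in each; adjusted p = 0.491 and 0.497). All 4 differences from feeding also compare experiment 1 with experiment 2. Within wash batches, the AAKO response to CL316243 was -0.42 in batch 1 (adjusted p = 0.0686) and -0.55 in batch 2 (adjusted p = 0.0212), the CTRL response was -0.57 (adjusted p = 0.0451) and -0.31 (adjusted p = 0.138), and fasting in AAKO mice gave -0.81 (adjusted p = 0.000747) and -0.27 (adjusted p = 0.071).

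Of the 6 other angiopoietin-related genes listed, 4 passed the filter. None was called between genotypes in any condition or between fasted and fed mice. Angptl2 was lower after CL316243 than in fed mice in CTRL (-0.92, adjusted p = 0.0245) and AAKO livers (-1.71, adjusted p = 4.51e-05). Angpt1, the ligand of the endothelial receptor Tek, was lower in CTRL livers (-0.76, adjusted p = 0.0109). The group means of Angptl2 after CL316243 were -5.71 in CTRL and -6.27 in AAKO livers and may lie near background. An Lpl probe described below, with a mean of -6.16 in AAKO CL316243 livers, was well above background on 2 of 6 arrays there.

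Lpl was read by 6 probes, which did not move alike; 5 are shown here, and the values of the sixth are given beside theirs. The 3 probes designed to the reference mRNA are A_51_P259296 at chr8:71430267-71430326, A_52_P257812 at chr8:71425050-71425109 and A_66_P123790 at chr8:71419652-71419711. A_55_P2715720 at chr8:71413311-71413370 is listed under another transcript model, and A_55_P2900592 at chr8:71405538-71405597 under a cDNA clone. These 5 are on the plus strand of mm9, and the clone probe lies nearest to the start of the locus. The sequences are printed to show which letters each result rests on.
Lpl A_51_P259296, last 30 bases: gtgtagtcgtcattcaatgtgattcagaaa
Lpl A_52_P257812: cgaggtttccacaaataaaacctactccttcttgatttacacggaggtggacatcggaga
Lpl A_66_P123790: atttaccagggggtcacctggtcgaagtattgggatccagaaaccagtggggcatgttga
Lpl A_55_P2715720, last 30 bases: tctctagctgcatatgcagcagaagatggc
Lpl A_55_P2900592, last 30 bases: cctaagggagatcgctttcaacactaggcg

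At the brightest probe, A_51_P259296, Lpl was lower in fasted than in fed CTRL livers, and no other difference from feeding was called. The lowest, median and highest values were 0.57, 0.73 and 1.06 in CTRL fed, -0.15, 0.65 and 0.95 in AAKO fed, -0.48, -0.07 and 0.25 in CTRL fasted and -0.21, 0.33 and 0.98 in AAKO fasted livers. After the agonist CTRL livers held 0.19, 0.60 and 0.99 and AAKO livers 0.04, 0.54 and 2.60, where the highest value is the array with high Acta1 and Ckm. Without that array the AAKO CL316243 mean moved from 0.82 to 0.46 and its SD from 0.92 to 0.31 (n = 5). The 6 CTRL fasted arrays lay below the 6 CTRL fed arrays; ordered by mean, neighbouring groups overlapped throughout. Fasting changed Lpl by -0.90 in CTRL mice (SE 0.28, adjusted p = 0.00785, 1.87-fold), with -0.78 (adjusted p = 0.265) in wash batch 1 and -1.03 (adjusted p = 0.0102) in wash batch 2. In AAKO mice the difference was -0.17 (SE 0.28, adjusted p = 0.614), and the responses of the genotypes differed by 0.73 (SE 0.39, adjusted p = 0.149). Fasted AAKO livers differed from fasted CTRL livers by 0.49 (SE 0.28, adjusted p = 0.14), and by 0.78 (adjusted p = 0.0407) within wash batch 2.

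The other Lpl probes of the reference mRNA gave fasting differences in CTRL mice of -0.89 (A_52_P257812, SE 0.32, adjusted p over probes = 0.0236) and -0.88 (A_66_P123790, SE 0.35, adjusted p over probes = 0.0438). A_55_P2715720 gave 0.20 (SE 0.13, adjusted p over probes = 0.246), and the clone probe A_55_P2900592 gave 0.94 (SE 0.52, adjusted p over probes = 0.147). The sixth probe rose in this comparison, by 1.04 (SE 0.40, adjusted p over probes = 0.0339), where the 3 reference mRNA probes fell. A_66_P123790 was well above background on 4 of 6 CTRL fasted arrays, so its value is set against signals near background. In AAKO mice fasting raised the clone probe by 2.31 (SE 0.52, adjusted p over probes = 0.00024) and the sixth by 1.75 (SE 0.40, adjusted p over probes = 0.000277), while the 3 reference mRNA probes differed by -0.26 to -0.02 and were not called. Fasted AAKO livers exceeded fasted CTRL livers by 1.31 (SE 0.52, adjusted p over probes = 0.0351) at the clone probe and by 1.13 (SE 0.40, adjusted p over probes = 0.0178) at the sixth. In fed livers the clone probe exceeded background clearly on 4 of 6 CTRL and 3 of 6 AAKO arrays, so its fasting differences also rest on values near background.

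At A_55_P2900592 the lowest, median and highest values were -6.08, -5.45 and -5.15 in CTRL fed, -6.97, -5.73 and -3.94 in AAKO fed, -5.23, -4.54 and -4.06 in CTRL fasted and -3.65, -3.43 and -2.55 in AAKO fasted livers. At this probe the fasted genotypes did not overlap, AAKO being higher. With CL316243 it read -5.38, -4.52 and -3.51 in CTRL and -8.06, -6.33 and -3.40 in AAKO livers. The highest AAKO value was again that of the array with high Acta1 and Ckm, and the mean of the group without it was -6.71 ± 1.17 (SD, n = 5). The probe was well above background on 6 of 6 arrays of both fasted groups and on 2 of 6 of the AAKO CL316243 group, so its genotype difference after CL316243 (-1.70, SE 0.52, adjusted p over probes = 0.0155) sets measured values against values near background.

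Fasted CTRL livers were also lower in Lpl than CTRL livers after CL316243 at A_51_P259296 (-0.74, SE 0.28, adjusted p = 0.0331). Leaving out single arrays ended this call for CTRL CL316243 replicate 1 (-0.71, adjusted p = 0.0592), replicate 2 (-0.71, adjusted p = 0.061) and replicate 6 (-0.65, adjusted p = 0.0826) and for CTRL fasted replicate 2 (-0.69, adjusted p = 0.068) and replicate 4 (-0.68, adjusted p = 0.0678). The same comparison for Angptl4 (0.62, SE 0.23, adjusted p = 0.0362) lost its call without any 1 of 7 arrays, CTRL CL316243 replicates 3, 4 and 6 and CTRL fasted replicates 1 to 4, with values of 0.52 to 0.62. All CTRL fasted arrays of Angptl4 were above all CTRL CL316243 arrays.

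**Figure D4:**
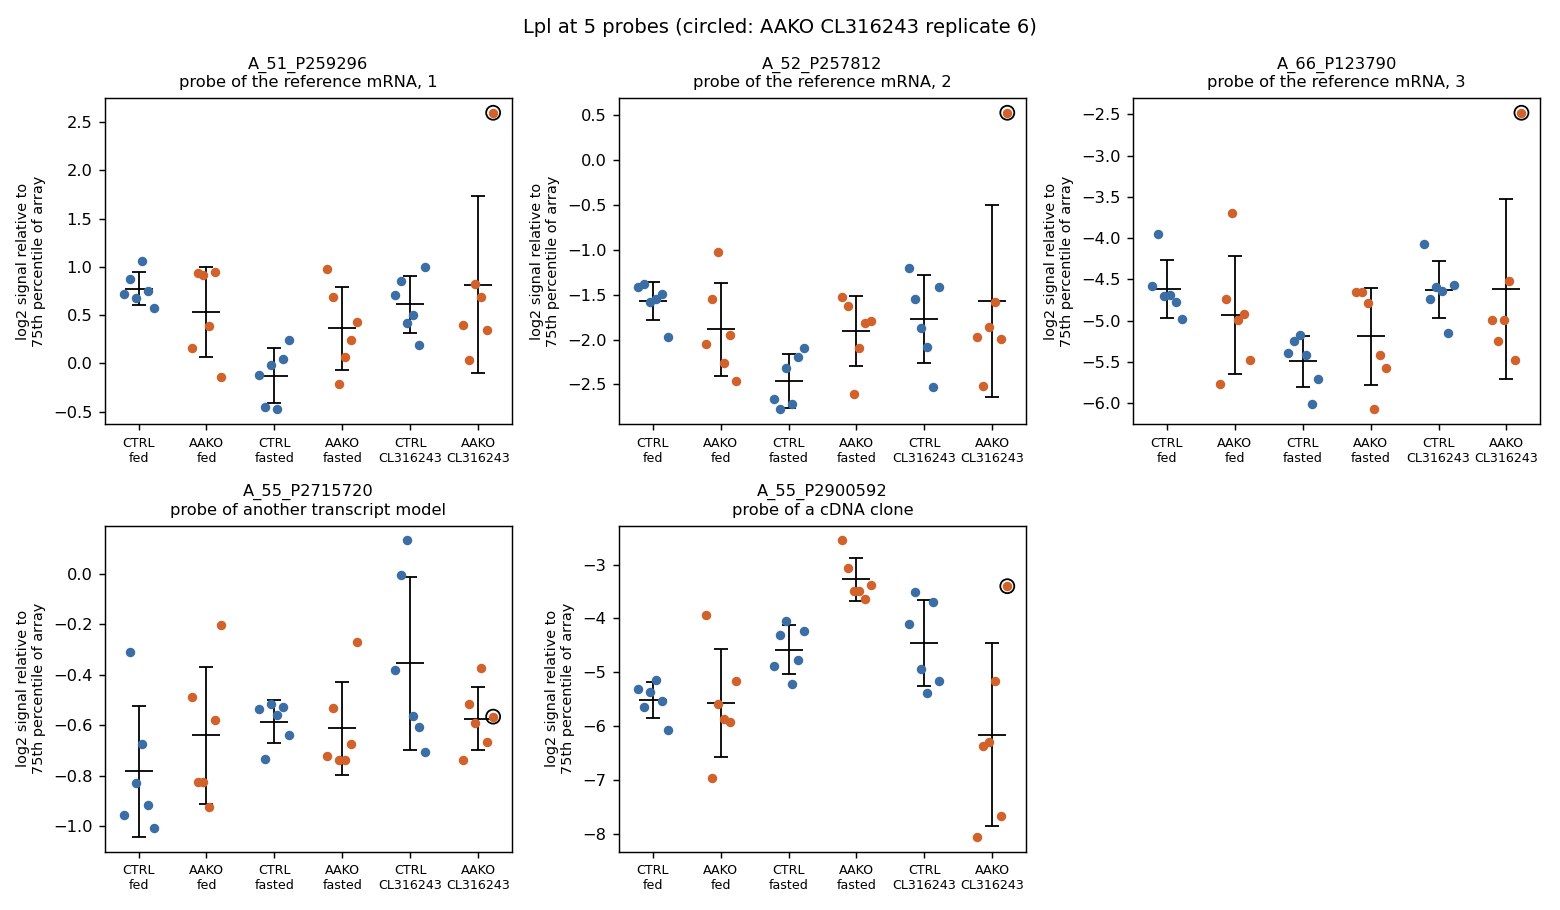
Scaled log2 signal (y axis; 0 is the 75th percentile of an array) at 5 Lpl probes in 6 groups (x axis). Each point is 1 array, the line is the mean and the bar 1 SD (n = 6), CTRL is blue, AAKO orange, and AAKO CL316243 replicate 6 is circled; it reads 2.60, 0.52 and -2.48 at the 3 probes of the reference mRNA.

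Lpl in adult liver is usually ascribed to Kupffer cells and other cells of the sinusoid rather than hepatocytes. The 6 Kupffer cell markers were above background on all arrays. On fasting 2 of 6 fell in CTRL and 3 of 6 in AAKO mice, beside 22.4% and 35.7% of all genes. After CL316243 4 of 6 fell in CTRL and 5 of 6 in AAKO mice, beside 12.8% and 15.7% of all genes. None of these markers was higher. Their summed log2 level was 4.67 to 5.88 in CTRL fed, 5.38 to 6.15 in AAKO fed, 4.11 to 5.94 in CTRL fasted, 3.37 to 5.90 in AAKO fasted, 3.48 to 5.30 in CTRL CL316243 and 4.59 to 5.28 in AAKO CL316243 livers. Their part in the Lpl values was not tested. In whole liver, fewer cells of a type and less RNA per cell cannot be told apart.

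Hepatic lipase, Lipc, fell on fasting in both genotypes and did not respond detectably to CL316243. Its lowest, median and highest values were -0.04, 0.30 and 0.76 in CTRL fed, 0.0048, 0.29 and 0.59 in AAKO fed, -0.58, -0.25 and 0.05 in CTRL fasted and -0.62, -0.40 and -0.29 in AAKO fasted livers. CL316243 livers held -0.13, 0.19 and 0.46 in CTRL and -0.18, 0.18 and 0.24 in AAKO mice. Fasted AAKO arrays were all below the fed and the CL316243 arrays of that genotype, and fasted CTRL arrays overlapped with both of theirs. Fasting changed Lipc by -0.56 in CTRL (SE 0.13, adjusted p = 0.000419, 1.48-fold) and -0.69 in AAKO mice (SE 0.13, adjusted p = 1.36e-05, 1.62-fold). Against CL316243, within 1 experiment, the changes were -0.43 (SE 0.13, adjusted p = 0.00734) and -0.53 (SE 0.13, adjusted p = 0.000541). These were -0.28 (adjusted p = 0.31) and -0.58 (adjusted p = 0.00964) in wash batch 1 and -0.57 (adjusted p = 0.0347) and -0.44 (adjusted p = 0.0916) in wash batch 2. The genotypes differed by -0.19 to -0.06 (adjusted p between 0.211 and 0.955). CL316243 livers differed from fed livers by -0.14 in CTRL (SE 0.13, adjusted p = 0.473) and -0.17 in AAKO mice (SE 0.13, adjusted p = 0.348). Both values also compare experiment 1 with experiment 2.

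Of 7 listed relatives of the lipase family 2 passed the filter. Endothelial lipase, Lipg, which hydrolyses phospholipids of high-density lipoprotein, was lower after fasting in CTRL (-1.26, adjusted p = 2.98e-05) and AAKO livers (-1.09, adjusted p = 0.000105). After CL316243 it was lower in AAKO than in CTRL livers (-0.93, adjusted p = 0.00268). Pla1a, a phosphatidylserine-specific phospholipase, was higher in AAKO than in CTRL livers after fasting (0.61, adjusted p = 1.11e-05).

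Gpihbp1, the endothelial protein that anchors lipoprotein lipase, was highest in fasted AAKO livers and lowest in CTRL livers after CL316243. The lowest, median and highest values were 2.27, 2.47 and 2.68 in CTRL fed, 2.49, 2.60 and 2.79 in AAKO fed, 2.16, 2.73 and 3.21 in CTRL fasted and 3.18, 3.49 and 3.65 in AAKO fasted livers. After the agonist CTRL livers held 1.11, 1.91 and 2.19 and AAKO livers 1.83, 2.23 and 2.41. In both genotypes the CL316243 arrays lay below all fed arrays. The AAKO fasted arrays lay above all AAKO fed arrays and overlapped with the CTRL fasted arrays, where 2 CTRL arrays reached into the AAKO range. Fasting raised Gpihbp1 in AAKO mice by 0.84 (SE 0.17, adjusted p = 5.75e-05, 1.79-fold), against 0.28 in CTRL (SE 0.17, adjusted p = 0.18). The difference between these responses, 0.55 (SE 0.24), did not pass (adjusted p = 0.0692), and passed without CTRL fasted replicate 2 (0.63, adjusted p = 0.0341) or replicate 3 (0.66, adjusted p = 0.0289). Without CTRL fasted replicate 1, the array with the lowest value of that group, the CTRL response was 0.42 (adjusted p = 0.0348).

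CL316243 lowered Gpihbp1 by a log2 difference of -0.74 in CTRL mice (SE 0.17, adjusted p = 0.00144, 1.67-fold), and the AAKO value of -0.43 (SE 0.17) was just outside the threshold (adjusted p = 0.0508). It passed without AAKO CL316243 replicate 6, the array with high Acta1 and Ckm (-0.48, adjusted p = 0.0342), without AAKO CL316243 replicate 1 (-0.48, adjusted p = 0.0363) or without AAKO fed replicate 6 (-0.46, adjusted p = 0.046). Within wash batches the CTRL value was -0.89 (adjusted p = 0.0328) and -0.60 (adjusted p = 0.11). Within experiment 1, fasted exceeded CL316243 livers by 1.02 in CTRL (SE 0.17, adjusted p = 1.07e-05, 2.03-fold) and 1.26 in AAKO mice (SE 0.17, adjusted p = 9.71e-08, 2.40-fold), and both were called in each wash batch. AAKO livers exceeded CTRL after fasting by 0.68 (SE 0.17, adjusted p = 0.00101, 1.60-fold), with 0.57 (adjusted p = 0.0787) in wash batch 1 and 0.80 (adjusted p = 0.0113) in wash batch 2. After CL316243 the genotype difference was 0.44 (SE 0.17, adjusted p = 0.0528), with 0.74 (adjusted p = 0.0412) in wash batch 1 and 0.05 (adjusted p = 0.938) in wash batch 2. It passed without AAKO CL316243 replicate 2 (0.50, adjusted p = 0.036) or 3 (0.53, adjusted p = 0.0235) and without CTRL CL316243 replicate 2 (0.54, adjusted p = 0.0196), 3 (0.52, adjusted p = 0.0279) or 6 (0.48, adjusted p = 0.0481).

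Markers of endothelial cells, which make Gpihbp1, were called in several of these comparisons. Of 7 endothelial markers, all above background on every array, 6 fell after CL316243 in CTRL and 4 in AAKO mice, with none higher. Of all genes, 12.8% and 15.7% fell there. Fasted livers exceeded CL316243 livers in 5 of 7 in each genotype, beside 19.2% of all genes in CTRL and 26.2% in AAKO mice. Fasted AAKO livers exceeded fasted CTRL livers in 3 of 7, beside 21.3% of all genes. No endothelial marker was lower in these 3 comparisons. On fasting in CTRL mice, beside 20.9% of all genes higher and 22.4% lower, 1 of 7 was higher and 1 lower. In AAKO mice, beside 27.8% higher and 35.7% lower, 3 of these markers were higher and 2 lower. Their summed log2 level was 4.99 to 5.57 in CTRL fed, 5.28 to 5.55 in AAKO fed, 4.32 to 5.42 in CTRL fasted, 5.09 to 5.45 in AAKO fasted, 4.03 to 4.95 in CTRL CL316243 and 4.61 to 5.20 in AAKO CL316243 livers. Lyve1, a hyaluronan receptor of sinusoidal endothelium, had group means of -0.67, -0.39, 0.33, 2.14, -1.67 and -0.71 in that order. Others went the opposite way on fasting. Clec4g, a lectin of the same cells, had group means of 4.48 in fed and 3.59 in fasted CTRL livers, and Kdr, a receptor of vascular growth factor, 2.32 in fed and 1.78 in fasted AAKO livers. Stellate cell and fibroblast markers were also lower after CL316243, 3 of 6 in each genotype, beside 12.8% of all genes in CTRL and 15.7% in AAKO. Of these 6, 2 were higher in fasted AAKO than in fasted CTRL livers, beside 21.3% of all genes. The part of these cells in the Gpihbp1 values was not tested.

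Lmf1, the chaperone-like factor that lipoprotein and hepatic lipase need to fold, fell on fasting in both genotypes and did not respond detectably to CL316243. At probe A_55_P1991075, at chr17:25799606-25799665 on the plus strand, the lowest, median and highest values were 4.08, 4.24 and 4.34 in CTRL fed, 4.05, 4.10 and 4.19 in AAKO fed, 3.29, 3.66 and 3.92 in CTRL fasted and 3.06, 3.40 and 3.58 in AAKO fasted livers. After the agonist CTRL livers held 4.10, 4.15 and 4.28 and AAKO livers 3.94, 4.08 and 4.14. All fasted arrays lay below all fed and all CL316243 arrays of their genotype. Fasting changed Lmf1 by -0.57 in CTRL (SE 0.08, adjusted p = 1.91e-06, 1.48-fold) and -0.74 in AAKO mice (SE 0.08, adjusted p = 4.37e-09, 1.67-fold), and both were called in each wash batch. Against CL316243 the changes were -0.51 (SE 0.08, adjusted p = 1.45e-05) and -0.69 (SE 0.09, adjusted p = 2.19e-08). CL316243 livers differed from fed livers, across experiments, by -0.06 in CTRL (SE 0.08, adjusted p = 0.687) and -0.05 in AAKO mice (SE 0.09, adjusted p = 0.727).

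Fasted AAKO livers held less Lmf1 than fasted CTRL livers (-0.29, SE 0.08, adjusted p = 0.00477, 1.22-fold), with overlapping arrays, and with -0.41 (adjusted p = 0.022) in wash batch 1 and -0.18 (adjusted p = 0.195) in wash batch 2. The other probe, A_55_P2177988 at chr17:25722737-25722796, did not reach the threshold for this difference (-0.15, SE 0.09, adjusted p over probes = 0.191). At that probe the fasting changes were smaller, -0.34 in CTRL (SE 0.09, adjusted p over probes = 0.00367) and -0.42 in AAKO mice (SE 0.09, adjusted p over probes = 0.000216). Its difference between fasted and CL316243 livers was -0.13 in CTRL mice (SE 0.09, adjusted p over probes = 0.28), a comparison called at the other probe.

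**Figure D5:**
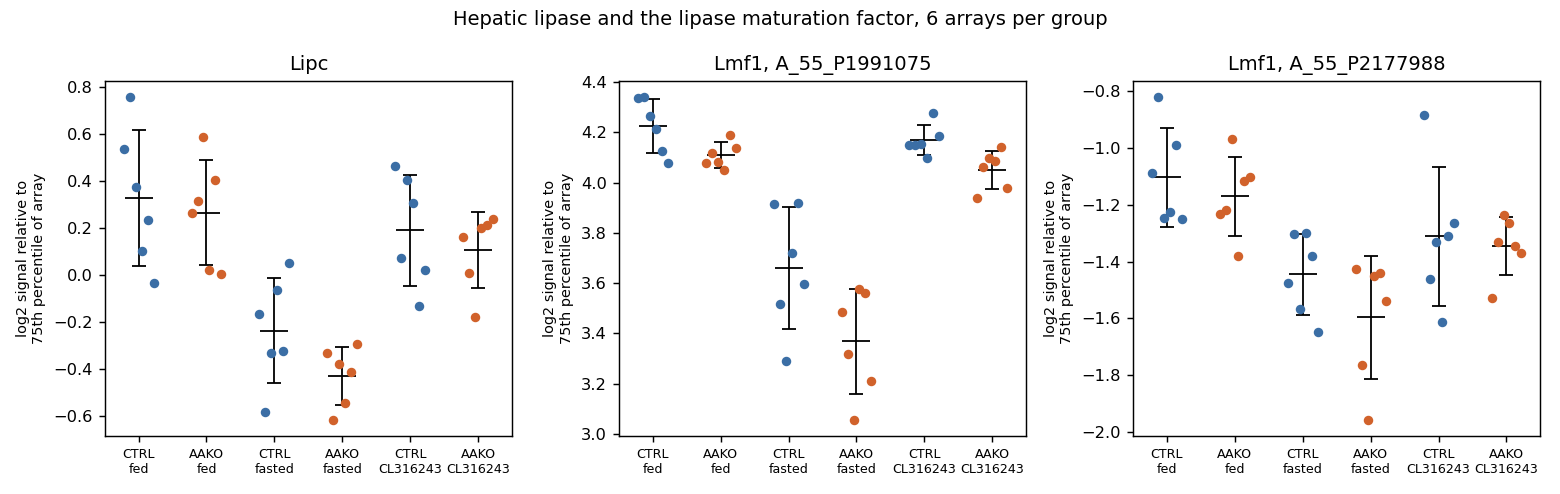
Scaled log2 signal (y axis; 0 is the 75th percentile of an array) for Lipc and for both probes of Lmf1 in 6 groups (x axis). Each point is 1 array, the line is the mean and the bar 1 SD (n = 6), CTRL is blue and AAKO orange. Fasted livers hold the lowest group means, -0.24 and -0.43 for Lipc and 3.66 and 3.37 for the first Lmf1 probe in CTRL and AAKO.

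Of 9 listed cofactors and processing factors of lipoprotein lipase, 6 were lower in fasted AAKO than in fasted CTRL livers and none was higher, beside 28% of all genes lower. On fasting 2 rose and 1 fell in CTRL mice, beside 20.9% of all genes higher and 22.4% lower. In AAKO mice 2 rose and 5 fell, beside 27.8% of all genes higher and 35.7% lower. The list was chosen with results of these data known. Apoc2, the obligate activator of the lipase, was lower in fasted AAKO than in fasted CTRL livers (-1.14, adjusted p = 1.38e-09); its group means were 7.61 ± 0.28 in CTRL fasted and 6.47 ± 0.30 in AAKO fasted livers (SD, n = 6), against 7.37 ± 0.16 and 7.23 ± 0.13 in the fed groups. Pcsk5, one of the proprotein convertases that cleave the lipase and its inhibitors, was lower in the same comparison (-1.26, adjusted p = 5.33e-06). Sel1l, which helps the lipase leave the endoplasmic reticulum, was lower in it too (-0.58, adjusted p = 0.000107) and also fell on fasting in CTRL (-1.16, adjusted p = 1.3e-09) and AAKO livers (-1.82, adjusted p = 1.27e-14). Apoa5, which promotes lipolysis, rose on fasting in CTRL (0.48, adjusted p = 9.67e-06) and AAKO livers (0.70, adjusted p = 4.93e-09) and after CL316243 in CTRL (0.56, adjusted p = 6.52e-06) and AAKO livers (0.66, adjusted p = 1.84e-07), with no genotype difference called. After CL316243 the genotypes differed in 3 of 9, beside 24.7% of all genes (13.4% higher and 11.3% lower in AAKO). Sel1l was higher in AAKO (0.45, adjusted p = 0.00471), and Pcsk6 (-0.52, adjusted p = 4.48e-05) and Lmf2 (-0.25, adjusted p = 0.000566) were lower.

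Of 6 listed receptors for lipoprotein remnants and lipids, 3 rose and 2 fell on fasting in CTRL and 4 rose and 2 fell in AAKO livers, where 43.3% and 63.5% of all genes were called. Vldlr, which binds triglyceride-rich particles together with lipoprotein lipase, rose by 1.17 (adjusted p = 0.0165) in CTRL and by 1.06 (adjusted p = 0.0209) in AAKO livers. Lsr, the lipolysis-stimulated lipoprotein receptor, fell in CTRL (-0.82, adjusted p = 1.04e-05) and AAKO livers (-1.55, adjusted p = 1.86e-11). Scarb1, the high-density lipoprotein receptor, was higher in fasted AAKO than in fasted CTRL livers (0.67, adjusted p = 2.08e-07).

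Genes of like pattern were sought for the 3 members whose group means spanned at least 1 log2 unit, by the root mean square difference of the 6 centred group means over 15610 tested genes with a RefSeq name. Nearest to Angptl4 were Btc, which encodes the growth factor betacellulin (0.203 log2 units), Slc25a34, a mitochondrial carrier (0.264), and Tlcd5 (0.265). Nearest to Angptl8 were Gm35933 (0.527), the heat shock protein gene Hsph1 (0.597) and Hapln1, a link protein of the extracellular matrix (0.611), so that its closest neighbours lay further off. Nearest to Gpihbp1 were C1qtnf1, a C1q and TNF related secreted protein (0.0446), Mxra8, an adhesion protein (0.0794), and the kinase Fyn (0.0816). These are descriptions over 6 group means.

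Promoters, taken as 250 bases before to 50 bases after the start, were found in the RefSeq table of GRCm38.p6 for 4 of the 7 genes, Angptl6, Angptl8, Lipc with 2 starts and Lmf1, all of which fell on fasting in both genotypes. Each was searched on both strands for AGGTCA, a nuclear receptor half-site, for AGGTCA in direct repeat with 1 base between, for CACGTG, an E-box, and for TGACGTCA, a cAMP response element; the direct repeat holds the half-site. Among 32851 promoters of this length 16.3% held AGGTCA, 0.0396% the direct repeat, 7.15% CACGTG and 1.79% TGACGTCA. AGGTCA matched in 1 Lipc promoter, where both half-sites are in capitals, and none of the other 4 held any of these letters. The promoter of Angptl8, the member with the largest fasting difference, and that of Lipc with the matches are shown. A match describes letters and not binding.
Angptl8, chr9:21835260-21835559, plus strand: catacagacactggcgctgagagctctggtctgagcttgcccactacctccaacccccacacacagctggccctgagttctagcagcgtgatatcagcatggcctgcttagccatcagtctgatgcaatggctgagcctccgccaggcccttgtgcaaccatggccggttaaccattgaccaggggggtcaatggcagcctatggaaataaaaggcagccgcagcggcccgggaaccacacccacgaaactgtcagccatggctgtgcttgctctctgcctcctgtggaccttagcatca
Lipc, chr9:70934759-70935058, minus strand: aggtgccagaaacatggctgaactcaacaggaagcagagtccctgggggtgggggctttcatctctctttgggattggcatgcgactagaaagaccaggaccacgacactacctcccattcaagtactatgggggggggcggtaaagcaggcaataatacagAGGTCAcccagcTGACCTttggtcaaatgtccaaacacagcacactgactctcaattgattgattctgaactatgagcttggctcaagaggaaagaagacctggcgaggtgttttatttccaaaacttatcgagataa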

How the data were processed

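The authors deposited 1 scanner file per array, written by version 10.10.1.1 of Feature Extraction (Agilent) per the file headers, with spot intensity from which a fitted background had been subtracted, and 0 or 1 marks for signal above background. They also deposited a table of log2 values for 36898 probes, whose columns within a group hold identical sorted values; its scale is log2 of the scanner signal, its filter is unknown, and its column medians were 6.88 to 7.01. The submitters' processing notes also name limma.

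Here outlier spots were left out (2701 over all arrays), spots of a probe were averaged, and log2 processed intensity was taken relative to the 75th percentile of each array. Each gene was represented by its brightest probe. Genes well above background on at least 5 of 6 arrays of a group were tested (24251). Symbols came from RefSeq accessions for 32994 probes (1535 changed). limma 3.58.1 in R 4.3.3 fitted 6 group means and wash batch over 36 arrays, with Benjamini-Hochberg adjustment; all 36550 filtered probes were fitted likewise. The number of arrays limits the precision. Both wash batches hold every group, AAKO CL316243 with replicates 3 and 4 alone in wash batch 2. The 8 slides were tried as a block. The scripts were tested on simulated data.

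The members, lists and alternatives were chosen with earlier results of these data known. The named genes are the 7 members and at most 4 called genes per list and comparison, with the largest changes. Cpt1a and Pdk4 (the exceptions to a count), Lyve1, Clec4g, Kdr and the muscle markers were chosen after their values were seen. One listed gene and the sequence of 1 Lpl probe are not reported here. Panels of markers for adipocytes, neutrophils and red blood cells were also read.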

Additional observations from a re-analysis of the deposited data

Results flagged for a closer look

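Among 78 sets of 6 values (13 probes in 6 groups), 5 held an array whose gap to its nearest neighbour exceeded 0.625 of the range, where chance gives about 3.9. All 5 are of Lpl, which has 6 of the 13 probes, and 3 of them are the same array. Probes of 1 gene read the same samples, so the 5 are not separate events to set against 3.9. AAKO CL316243 replicate 6 was high at the 3 reference mRNA probes, with 2.60 at A_51_P259296, 0.52 at A_52_P257812 and -2.48 at A_66_P123790. CTRL fed replicate 6 was low at A_52_P257812 (-1.97), and AAKO fasted replicate 1 was high at the sixth Lpl probe (-1.62).

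The genotype difference of Angptl4 changed with the condition: it was larger in fasted than in fed mice by 1.12, differed after CL316243 from that in fed mice by -1.25, and differed between fasted and CL316243 mice by 2.37. Each passed the test of the difference itself in limma.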

How the results depend on the processing

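Angptl4 kept its direction and its call in the genotype differences of fasted and CL316243 mice under every scaling, filter and left-out array tried. It lost both calls only within wash batch 2, where AAKO CL316243 is replicates 3 and 4 alone. Counts of members called moved by over 1.5 times as follows. AAKO against CTRL after CL316243 went from 1 to 2 with slide as a fixed factor and 2 within wash batch 1. CL316243 against fed went from 4 to 1 in CTRL within wash batch 2, and from 1 to 2 in AAKO under normexp, quantile normalization, the authors' table, the stricter filter and a fit of the groups compared alone. Fasted against CL316243 in CTRL went from 5 to 3 without a filter, with slide and with the second probe of each gene, and to 2 within wash batch 1. Of the differences between genotypes' responses, fasted against fed went from 1 to 3 in a fit of those groups alone and to 0 in each wash batch, and fasted against CL316243 from 1 to 2 within wash batch 2. Leaving out single arrays gave 0 to 0, 3 to 3 and 1 to 2 for the genotype comparisons in fed, fasted and CL316243 mice, 6 to 7 and 6 to 6 for fasting in CTRL and AAKO, 4 to 4 and 1 to 2 for CL316243, 3 to 5 and 5 to 5 for fasting against CL316243, and 1 to 2 for each of the 3 differences of responses. Smaller moves within wash batches were 3 to 2 in each batch for the fasted genotype comparison, with no member shared (Angptl4 and Lmf1 in batch 1, Lpl and Gpihbp1 in batch 2), 6 to 5 for fasting in CTRL (batch 1) and AAKO (batch 2), 4 to 3 for CL316243 in CTRL (batch 1), and 5 to 4 for fasting against CL316243 in CTRL (batch 2) and AAKO (each batch). The second Lpl probe reversed the CTRL differences of fasting (0.20, adjusted p = 0.26) and CL316243 (0.43, adjusted p = 0.021). The cause was not tested. Same-numbered arrays of different groups had deviations with r above 0.1 in 14 of 90 pairs. Of 36 arrays, 5 were closest to an array of their own number. Pairing by number was not seen, though these counts cannot exclude it. With replicate number as a block no call of a member changed (the counts stayed at 3 and 1 in the fasted and CL316243 genotype comparisons).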
